A study of Mus musculus with 11 samples.

Results

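RNA sequencing followed 8 long noncoding RNA genes in cultured mouse hippocampal neurons given a miR-181a-5p mimic or a control. They were Meg3, Rian, Mirg, Miat, Snhg11, Malat1, Neat1 and B230334C09Rik, 8 of the 48709 genes listed and of the 17365 genes tested, and all 8 passed the filter on low counts. The members were taken by symbol and were selected on their abundance, with the result of the mimic comparison in these samples already known, so their levels and their differences between groups are given as descriptions, with no p-value. The label under which they were grouped, abundant neuronal and imprinted long noncoding RNAs, fitted some members and not others, as the levels below show.

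Cells from pooled hippocampi of CD1 mouse embryos at embryonic day 17 were grown as primary cultures, which hold glia as well as neurons. At day in vitro (DIV) 10, lipid nanoparticles were added to both groups. In the mimic group (5 samples) they carried miR-181a-5p mimic, and in the control group (6 samples) a negative control oligonucleotide. RNA was taken 48 h later, at DIV 12, and no untreated cells are among the groups compared here. The labels do not say whether replicates came from separate cultures, so the spread between samples, and any p-value resting on it, may be technical.

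Long noncoding RNAs are transcripts that are processed much like messenger RNAs but are not translated into a known protein. Meg3, Rian and Mirg lie one after the other in the imprinted Dlk1-Dio3 domain, where they are transcribed in the same direction from the maternal chromosome, and Rian and Mirg hold arrays of small nucleolar RNAs and microRNAs. Malat1 and Neat1 are neighbours that stay in the nucleus: Malat1 collects in nuclear speckles, which store splicing factors, and Neat1 is the scaffold of paraspeckles. Miat, also known as Gomafu, is a nuclear RNA of neurons, and Snhg11 belongs to the host genes of small nucleolar RNAs.

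The sequences of both oligonucleotides are shown because the seed, bases 2 to 8 from the 5′ end and given in capitals, decides which letters a target must hold. The mimic was identical to the mature mouse microRNA in RefSeq, and its 7-letter match in a transcript is TGAATGT.
miR-181a-5p mimic: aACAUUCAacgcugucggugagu
negative control: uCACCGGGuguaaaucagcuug
Matches were counted in the merged exons of each gene (GENCODE M21 models on GRCm38), on the transcribed strand. Meg3, Rian and Neat1 had 3 matches each, Mirg, Malat1 and B230334C09Rik had 2 each, and Miat and Snhg11 had 0. The longest annotated transcript of Mirg held 0 of its 2 matches. TGAATGT thus occurred in 6 of the 8 genes (75%), against 34.1% of 17312 tested genes with a model and 63.8% of the 3635 tested genes whose exons were about as long. Long noncoding genes as a whole held it in 18.3% of cases. The longer match TGAATGTA, which contains the 7-letter match, was present once each in Meg3, Rian and B230334C09Rik. This was 37.5% of the members, against 10.8% of the 17312 tested genes and 23.5% of those with exons about as long. The 4 stretches below are the 30 bases up to and including a match, with the match in capitals, and they are shown for the genes with the longer match and for the most variable gene.
Meg3, chr12:109560132-109560138, plus strand: caatacactcacaaataggtagaTGAATGT
Rian, chr12:109635385-109635391, plus strand: aaatcttctcttccctcttgtgcTGAATGT
B230334C09Rik, chr3:158067528-158067534, minus strand: tactactttactaacttagattgTGAATGT
Malat1, chr19:5798732-5798738, minus strand: tccaaaaagacctgtagagctgtTGAATGT
The coordinates are those of the 7-letter match on GRCm38, and all 4 lie in exons. The match to the seed of the control oligonucleotide, CCCGGTG, occurred once each in Miat, Snhg11, Neat1 and B230334C09Rik, and in 16.5% of the 17312 tested genes. B230334C09Rik and Neat1 thus held matches to both oligonucleotides. The median exon length was 9110 bases for the members and 4027 bases for all tested genes. No share among genes of like length was counted for CCCGGTG, so no enrichment is read from its share. A match describes letters and does not show that a site is used.

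Total counts per sample ranged from 17287168 to 48091231. Control replicate 1 was the deepest library, and without it 218 rather than 495 genes were called over the whole table. The drop was not particular to that library. Without mimic replicate 2 (26060379 counts) 237 genes were called, and without mimic replicate 4 (24896412 counts) 278. Leaving out any other single sample gave 350 to 491 calls. The 8 genes together took 0.458% to 0.537% of all counts in a sample. They made up a median of 39.0% of the counts of the 2090 tested genes of a long noncoding class, which themselves held a median of 1.24% of all counts. Levels are in CPM, that is, counts scaled to a common library size after scaling of library sizes with the TMM method, and levels of different genes are set against each other as CPM per kilobase of merged exon. The cultures held both neuronal and astrocyte markers at high levels. In the control samples 10 neuronal markers had means from 130 CPM (Gad2) to 2608 CPM (Map2). Among them Slc17a7, the vesicular glutamate transporter of excitatory neurons, had 927 ± 31.4 CPM (SD, n = 6). The means of 8 astrocyte markers ran from 11.5 CPM (S100b) to 1045 CPM (Slc1a3). Those of 8 microglial markers ran from 0.278 ± 0.0946 CPM (P2ry12) to 5.09 ± 0.461 CPM (Csf1r). These marker levels are not scaled to exon length.

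**Figure D1:**
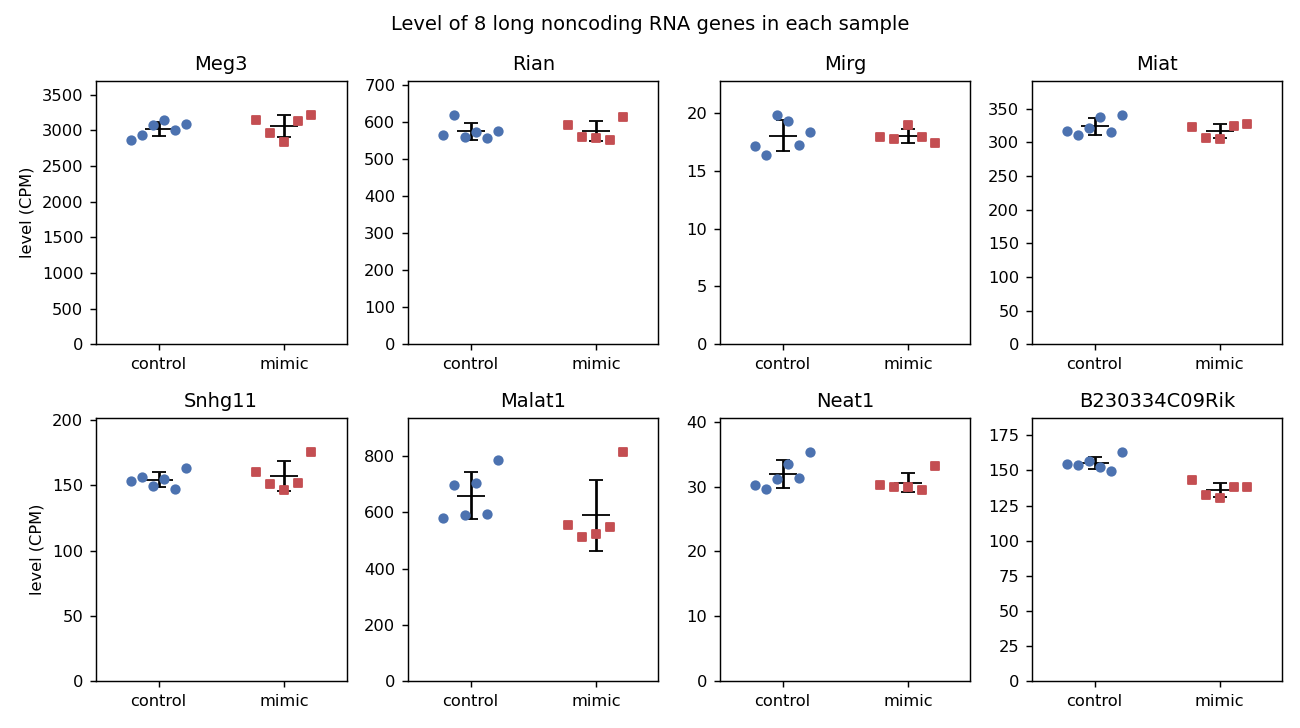
Level in CPM (vertical axes, starting at 0) of each gene in the 6 control samples (circles) and the 5 mimic samples (squares), drawn in the order of their replicate numbers, with the mean and 1 SD in black. The groups overlap for 7 genes and are apart for B230334C09Rik. The fifth mimic sample is the highest of its group for every gene but Mirg and B230334C09Rik, and it stands furthest apart for Malat1 and Neat1.

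Per kilobase of exon, Meg3 stood far above the others. Its control level was 167 ± 5.77 CPM per kilobase (SD, n = 6), the highest of the 2090 long noncoding genes and 142nd of 17312 tested genes with a model. Malat1 followed at 94.5 ± 12.0 CPM per kilobase, the 3rd of the long noncoding genes. Miat (34.8 ± 1.33) and Rian (31.5 ± 1.23) came next, and their control samples overlapped. Snhg11 (18.1 ± 0.682) and B230334C09Rik (17.4 ± 0.506) also overlapped in the control samples but not in the mimic samples, where the lowest Snhg11 value was 17.2 and the highest B230334C09Rik value was 16.02 CPM per kilobase. Mirg, at 2.47 ± 0.185, and Neat1, at 1.54 ± 0.104 CPM per kilobase, lay below the median of all tested genes (3.47) though above that of the long noncoding genes (0.445), so per kilobase the word abundant did not describe them. By CPM, without regard to length, Neat1 was 33rd and Mirg 64th of the 2090 long noncoding genes. Their merged exons pool long and short isoforms, which lowers a level per kilobase where only a short isoform is made. The libraries were poly(A)-selected, so these levels and their order hold for captured RNA. How fully each transcript was captured was not tested, and amounts in the cells are not read from this order. All other neighbours in this order were apart in both groups.

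The comparison of mimic with control samples asked whether these RNAs differ after 48 h of the mimic. Of the 8 genes, 1 was called (edgeR quasi-likelihood test, Benjamini-Hochberg adjusted p below 0.05 over all tested genes), beside 2.85% of all tested genes (495 of 17365) and 0.526% of those of a long noncoding class (11 of 2090). The called gene was B230334C09Rik, lower in the mimic samples, a direction in which 1.77% of all tested genes were called. It was also the sole member whose groups did not overlap, which held for 2.89% of all tested genes. Since the members were picked with this comparison known, nothing is read from these counts. The fitted value was lower in 5 of the 8 genes and higher in 3. Their median log2 fold change was -0.016, next to -0.00015 over all tested genes.

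**Figure D2:**
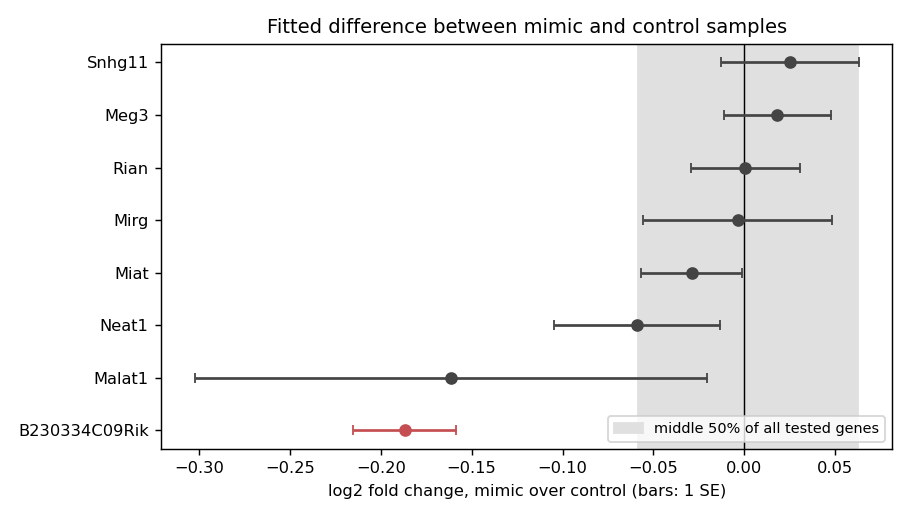
Fitted log2 fold change, mimic over control, for each gene (points) with 1 SE to each side (bars), and the range that holds the middle 50% of all tested genes in grey (-0.059 to 0.062). B230334C09Rik (red) lies at -0.19 with a short bar, Malat1 at -0.16 with the longest bar, and 5 of the other 6 points fall inside the grey range, with Neat1 at its lower edge.

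Meg3, the maternally expressed gene that opens the noncoding part of the Dlk1-Dio3 domain, lies on chromosome 12 from 109541001 to 109571726. Its control levels ran from 2871 over a median of 3041 to 3146 CPM, and its mimic levels were 3149, 2968, 2835, 3130 and 3211 CPM. Mimic replicate 3 was the lowest and mimic replicate 5 the highest of all samples, so the mimic range enclosed the control range, with means of 3019.9 ± 104 CPM (SD, n = 6) and 3058 ± 154 CPM (SD, n = 5). The log2 fold change was 0.018 (SE 0.029), with a 95% interval from -0.039 to 0.076.

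Rian, the nucleolar RNA host downstream of Meg3 (chromosome 12, 109603940 to 109661716), was likewise close in both groups. Control samples ran from 557 over 569 to 618 CPM, and mimic samples held 593, 558, 558, 552 and 613 CPM. Control replicate 2 was the highest control sample, and mimic replicates 1 and 5 stood above the other mimic samples. The means were 574 ± 22.4 and 575 ± 27.0 CPM, a log2 fold change of 0.00068 (SE 0.030).

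Mirg, which carries a large microRNA array (chromosome 12, 109729764 to 109749460), was the least abundant member in CPM, with 296 to 815 counts per sample. Control levels ran from 16.4 over 17.8 to 19.8 CPM, and mimic levels were 17.9, 17.8, 18.98, 17.9 and 17.4 CPM, all inside the control range. The log2 fold change was -0.0037 (SE 0.052). At its lowest count, counting error alone gives a coefficient of variation of 5.81%, and that observed between samples was 7.49% in the control and 3.30% in the mimic group.

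The proportions within the Meg3, Rian and Mirg row were close in both groups. The ratio of Meg3 to Rian counts was 5.27 ± 0.299 in control and 5.32 ± 0.216 in mimic samples. Rian to Mirg was 32.0 ± 3.31 and 32.0 ± 2.28, and Meg3 to Mirg was 168 ± 8.40 and 170 ± 13.3. These ratios are of counts, not of molecules, since the exons differ in length.

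Miat (chromosome 5, 112213228 to 112229395) ran from 310.2 over 319 to 339.9 CPM in control samples, and the mimic samples held 323, 306, 306, 324 and 327 CPM. Mimic replicates 2 and 3 were lower than every control sample, and the other 3 were inside the control range. The means were 324 ± 12.3 and 317 ± 10.4 CPM, with a log2 fold change of -0.029 (SE 0.028).

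Snhg11 (chromosome 2, 158375638 to 158386145) is protein-coding in GENCODE M21 and a long noncoding RNA in RefSeq. Its control levels ran from 147 over 154 to 164 CPM, and the mimic levels were 160.1, 151, 147, 151 and 176 CPM. Mimic replicate 5 was above every control sample and replicate 3 just below them. The means were 154 ± 5.81 and 157 ± 11.4 CPM, and the log2 fold change of 0.025 (SE 0.038) became -0.015 without that sample.

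Malat1 (chromosome 19, 5795690 to 5802672) was the most variable member. Control samples ran from 581 over 647 to 787 CPM, with the highest value in replicate 6. In the mimic group 4 samples held 554, 512, 523 and 547 CPM, all below the lowest control sample, while replicate 5 held 815 CPM, above the highest. The means were 659.99 ± 83.9 and 590.1 ± 127 CPM, and the log2 fold change was -0.16 (SE 0.14), with a 95% interval from -0.44 to 0.11. A single library moved that value widely: it was -0.30 without mimic replicate 5, -0.0995 without control replicate 6 and -0.25 without both, and Malat1 was not called in any of these fits. The spread of its log2 levels within groups (SD 0.228) was in the 99.65th percentile of the 9673 genes with at least 10 CPM, whose median was 0.0623. The other members had values between 0.0469 and 0.0860.

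Neat1, the paraspeckle scaffold (chromosome 19, 5824708 to 5845478), lies 22035 bases from Malat1 on the same strand. Control levels ran from 29.7 over 31.3 to 35.3 CPM, with the highest again in replicate 6. Mimic levels were 30.3, 30.002, 29.96, 29.5 and 33.2 CPM, with the highest again in replicate 5. The log2 fold change was -0.059 (SE 0.046). Malat1 counts were 20.7 ± 1.95 times those of Neat1 in control and 19.2 ± 3.06 times in mimic samples, and the mimic value was 24.5 in replicate 5 against 17.1 to 18.5 in the others.

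B230334C09Rik was the member with the clearest difference. It is a gene of 1 exon and 8927 bases on the minus strand of chromosome 3 (158067186 to 158076112), annotated as antisense. Control levels ran from 149.9 over 154 to 163 CPM, and the mimic levels were 143, 133, 130.3, 138 and 138 CPM. Every mimic sample lay below every control sample. The means were 155 ± 4.51 CPM (SD, n = 6) and 136 ± 4.99 CPM (SD, n = 5), which the fit put at 12.1% lower in the mimic group (log2 fold change -0.19, SE 0.028, 95% interval -0.24 to -0.13). Leaving out any 1 sample kept the log2 fold change between -0.203 and -0.166. The member was picked with this comparison known, so the interval and this range are descriptions and not a test.

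**Figure D3:**
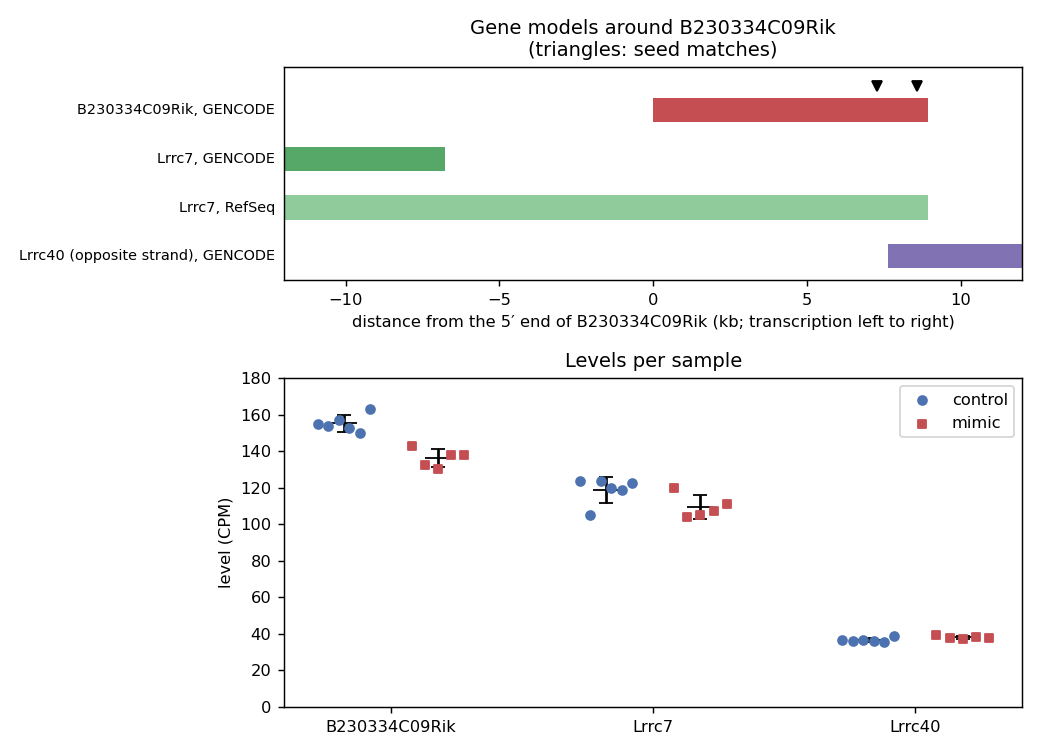
Top, gene models around B230334C09Rik by distance in kb from its 5′ end, with transcription from left to right and its 2 seed matches as triangles; bottom, level in CPM of B230334C09Rik, Lrrc7 and Lrrc40 in each control (circles) and mimic (squares) sample, with the mean and 1 SD. RefSeq extends Lrrc7 to the 3′ end of B230334C09Rik, and the groups are apart for B230334C09Rik and overlap for Lrrc7 and Lrrc40.

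The annotation around this gene bears on what its counts stand for. In GENCODE M21 it begins 6778 bases past the 3′ end of Lrrc7, on the same strand. In RefSeq on GRCm38.p6, Lrrc7 runs from 158067186 to 158561983 and so ends on the very base where B230334C09Rik ends, and the whole of B230334C09Rik lies inside it. Lrrc7 encodes densin, a scaffold protein of the postsynaptic density. From counts per gene, a separate noncoding RNA and a 3′ extension of the Lrrc7 messenger RNA cannot be told apart. In GENCODE M21 the last 1302 bases also overlap an exon of Lrrc40 on the opposite strand, while in RefSeq Lrrc40 ends at 158067090, before B230334C09Rik, and there is no overlap. The strand setting of the counting was not given in the sources used here. The printed TGAATGTA match lies within that overlap, at base 8579 of the transcript, and the other match at base 7272 is outside it.

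Lrrc7 and Lrrc40 were singled out for this position after their values were seen. Lrrc7 levels ran from 105 to 123 CPM in the control group, and the mimic levels were 119.7, 104, 105, 107 and 111 CPM. Control replicate 2 and mimic replicate 1 were unlike the rest of their groups, and the groups overlapped. Its means were 119 ± 7.11 and 109 ± 6.38 CPM, and the log2 fold change of -0.12 (SE 0.042) did not pass the test (edgeR adjusted p 0.138). Without control replicate 2 the edgeR adjusted p was 0.0136, without mimic replicate 1 it was 0.0305, and over all alternatives it ranged from 0.00403 to 0.329. Lrrc7 counts were 0.765 ± 0.0439 of those of B230334C09Rik in control and 0.801 ± 0.0239 in mimic samples, with overlap.

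Lrrc40 had fitted values in the other direction, from a control mean of 36.7 ± 1.01 CPM to a mimic mean of 38.0 ± 0.772 CPM, and did not pass the test either (log2 fold change 0.053, edgeR adjusted p 0.509). Its counts were 0.234 to 0.238 of those of B230334C09Rik in the control samples and 0.273 to 0.286 in the mimic samples.

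Cell type markers moved between the groups too. In these bulk samples, fewer cells of a type and less RNA per cell cannot be told apart. The summed level of 10 neuronal markers was 7600 to 7796 CPM in control and 7319 to 7488 CPM in mimic samples, and 1 of the 10, Slc17a7, fell (log2 fold change -0.14, edgeR adjusted p 0.0239), while DESeq2 called 1 and 6 had an unadjusted p under 0.05. Of 8 fibroblast and vascular markers, the endothelial cadherin Cdh5 rose and the pericyte gene Rgs5 fell (edgeR adjusted p 0.00713 and 0.0227), and the sum was 246 to 370 against 379 to 497 CPM. DESeq2 called 5 of these 8, and 7 had an unadjusted p under 0.05. The collagen genes Col1a1, Col1a2 and Col3a1 had log2 fold changes of 0.47, 0.56 and 0.39, and Lum had 0.46, with edgeR adjusted p of 0.118, 0.0609, 0.142 and 0.161. Of 8 cell cycle genes, 3 rose (Top2a, Cdk1 and Bub1, edgeR adjusted p 0.00188, 0.0203 and 0.0306), with sums of 73.2 to 80.8 against 86.9 to 95.8 CPM, and DESeq2 also called 3 while 7 had an unadjusted p under 0.05. Of 8 astrocyte, 8 oligodendrocyte lineage and 8 microglial markers, 0, 0 and 0 were called by edgeR, 1, 1 and 0 by DESeq2, and 4, 3 and 3 had an unadjusted p under 0.05. Their sums overlapped, at 2537 to 2827 against 2385 to 2656, 315 to 381 against 288 to 331, and 15.1 to 15.99 against 14.1 to 15.7 CPM. Among these lists no defining marker had a group mean of 0. A further 6 loci linked to ribosomal RNA, listed after an earlier look at these data, all fell, from sums of 1661 to 3647 to sums of 342 to 1108 CPM. The part of these shifts in the B230334C09Rik difference was not tested.

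Companion genes were set beside the members by location or function, in 6 lists with 114 distinct tested genes, of which 2 fell and 1 rose. This was 2.63% of the companion genes, near the 2.85% called among all tested genes, so the 3 calls are no result about the lists. Of the 9 tested neighbours in and around the Dlk1-Dio3 domain, 0 were called by edgeR or by DESeq2, 1 had an unadjusted p under 0.05, and the count stayed 0 in all 19 alternatives with a test. Dync1h1, the heavy chain of cytoplasmic dynein, had 1415 ± 66.2 and 1346 ± 54.0 CPM (log2 fold change -0.072, edgeR adjusted p 0.240). The paternally expressed Dlk1 had a low level, at 1.04 ± 0.287 and 1.28 ± 0.138 CPM (log2 fold change 0.33, edgeR adjusted p 0.383). The other paternal genes of the domain, Rtl1 (-0.0067) and Dio3 (-0.046), had log2 fold changes within 1 SE of 0. So did Yy1 (-0.021), Slc25a29 (0.031), Begain (-0.015) and Ppp2r5c (0.0033), and Wdr25 had -0.099 (SE 0.074). The median log2 fold change of the 9 was -0.015.

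Imprinted genes elsewhere gave 1 rise and 1 fall among 35 tested, with a median log2 fold change of 0.034. DESeq2 called 3 of the 35, and 7 had an unadjusted edgeR p under 0.05. Grb10, an adaptor that dampens insulin receptor signalling, rose from 67.2 ± 3.06 to 74.0 ± 1.76 CPM (log2 fold change 0.14, edgeR adjusted p 0.0157), and kept its call in 10 of 11 fits with 1 sample left out. The exception was the fit without control replicate 1 (edgeR adjusted p 0.0719). Peg10, a retrotransposon-derived gene, fell from 32.4 ± 1.90 to 28.6 ± 1.70 CPM (log2 fold change -0.18, edgeR adjusted p 0.0316). It was called in only 3 of those 11 fits, without control replicate 2, control replicate 4 or mimic replicate 5, and its highest edgeR adjusted p was 0.125. Cdkn1c, a cell cycle inhibitor, had 0.287 ± 0.163 and 0.549 ± 0.0871 CPM and did not pass (edgeR adjusted p 0.0653).

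Other long noncoding RNAs known from brain gave 1 fall among 26 tested, and their median log2 fold change was -0.059. DESeq2 also called 1 of the 26, and 8 had an unadjusted edgeR p under 0.05. Mir9-3hg, the host of a neural microRNA, fell from 35.8 ± 0.757 to 32.5 ± 2.08 CPM (log2 fold change -0.14, edgeR adjusted p 0.0446). It kept its call in 3 of 11 fits with 1 sample left out, without control replicate 3, mimic replicate 1 or mimic replicate 3. The highest edgeR adjusted p of these 11 fits was 0.155. The call was also lost with upper-quartile scaling (edgeR adjusted p 0.0631). The same held with ribosomal-RNA-linked and mitochondrial genes removed (edgeR adjusted p 0.0502). It was kept with DESeq2 (adjusted p 0.0404) and without the count filter (edgeR adjusted p 0.0199). Ftx, from the X-inactivation centre, had a log2 fold change of -0.20 (edgeR adjusted p 0.0533), and A330023F24Rik had -0.22 (edgeR adjusted p 0.0805).

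The other 3 lists held 0 called genes by edgeR and by DESeq2, and 3, 0 and 3 genes with an unadjusted p under 0.05, in the order below. In the last of them 1 gene was called without mimic replicate 5. Among 14 hosts of small nucleolar RNAs the smallest p belonged to Epb41l4aos (log2 fold change 0.24), Snhg20 (0.17) and Gas5 (0.072), with edgeR adjusted p of 0.211, 0.211 and 0.223. Among 15 paraspeckle proteins, the partners of Neat1, it was Pspc1 (-0.045), Tardbp (0.035) and Hnrnpk (0.030), with edgeR adjusted p of 0.566, 0.67 and 0.728. Among 19 nuclear speckle and splicing genes, whose proteins share the compartment of Malat1, it was Pnn (0.072), Srsf2 (0.075) and Tra2b (0.096), with edgeR adjusted p of 0.198, 0.236 and 0.245. The medians of these lists were 0.015, 0.0086 and -0.0023 on the log2 scale.

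**Figure D4:**
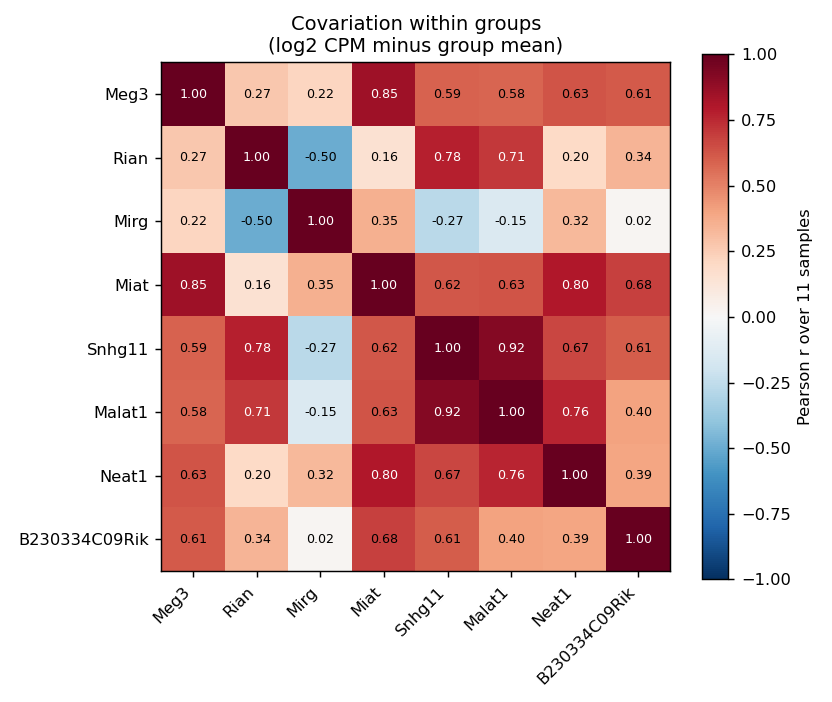
Pearson correlation between each pair of genes over 11 samples, computed on log2 CPM after the mean of each group was taken off, from blue (-1) over white (0) to red (1). Snhg11 and Malat1 form the strongest pair at 0.92, and Rian and Mirg the most negative at -0.50.

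How the members varied together within groups is given as a description over the 11 samples, which share library depth and culture effects. The values for the Dlk1-Dio3 members rested on single libraries. Meg3 and Rian had r = 0.27, which became 0.027 without mimic replicate 5 and 0.58 without control replicate 2. Meg3 and Mirg had 0.22, with 0.073 without control replicate 4 and 0.61 without mimic replicate 3. Rian and Mirg had -0.50, with -0.61 without control replicate 5 and -0.21 without control replicate 2. Malat1 and Neat1, also neighbours, had 0.76, between 0.66 without mimic replicate 5 and 0.93 without control replicate 2. Of the pairs from different chromosomes, Snhg11 and Malat1 had 0.92 (0.79 without mimic replicate 5), Meg3 and Miat 0.85 (at least 0.82 with any 1 sample left out), Miat and Neat1 0.80 (at least 0.71) and Rian and Snhg11 0.78 (at least 0.64). The median of the 28 pairs was 0.59, and it ranged from 0.492 to 0.618 when each sample was left out in turn.

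Several members also followed summed gene lists within groups. Meg3 had r = 0.81 with the fibroblast and vascular markers, and the value for the other members was 0.18 to 0.65. Snhg11 had 0.93 and Rian 0.84 with the other brain noncoding RNAs. Rian had 0.89 and Snhg11 0.82 with the paraspeckle proteins, of which Neat1 is the RNA partner, and Neat1 itself had 0.33. With the nuclear speckle list Malat1 had 0.77, Rian 0.81 and Snhg11 0.88. Malat1 also had 0.83 with the other brain noncoding RNAs and 0.85 with the hosts of small nucleolar RNAs. Its value was thus not particular to the speckle list. The list values were not computed with samples left out. Values with the neuronal markers were between -0.32 and 0.19. Other lists gave negative values too. With the Dlk1-Dio3 neighbours they ran from -0.73 (Rian) to 0.34 (Mirg). With the oligodendrocyte lineage markers they ran from -0.72 (Malat1) to 0.17 (Mirg), and with the small nucleolar RNA hosts from -0.43 (Mirg) to 0.88 (Snhg11).

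The 2 genes most like each member within groups came from the 9673 genes with at least 10 CPM, and all were protein-coding. They are the highest of many values over 11 samples, and the number expected by chance was not tested. Past r = 0.9 lay 4 genes for Meg3, 2 for Mirg, 11 for Malat1, and 3 each for Miat, Neat1 and B230334C09Rik. For Meg3 the 2 genes were Son (r = 0.96), a large protein of nuclear speckles, and Tnrc6b (0.93), a partner of Argonaute in microRNA silencing. Rian was most like Cnot6l (0.97), a deadenylase subunit, and Cdh11 (0.96), a cadherin, and 57 genes passed 0.9 with it. Snhg11 was most like Hif1a (0.96) and Nlgn1 (0.95), with 43 genes past 0.9, and Malat1 was most like Lgals8 (0.94) and Ccbe1 (0.93). Prdm10 (0.93) and Plcb3 (0.905) were nearest to Mirg, Wasf2 (0.94) and Atxn7 (0.92) to Miat, and Gatad2b (0.91) and Cers4 (0.91) to Neat1. For B230334C09Rik they were Lcor (0.95), a nuclear receptor corepressor, and Lrrc40 (0.92), which shares exon bases with it in GENCODE M21.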

How the data were processed

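RNA was poly(A)-selected and made into TruSeq v2 libraries, read single-end on a HiSeq2000. Per the labels, the authors used FastQC 0.11.5, STAR 2.5.2b (mm10) and featureCounts of Subread 1.5.1, and deposited raw counts per Ensembl gene for each sample. The annotation release, strand setting and treatment of multi-mapping reads were not given in the sources used here. The authors also deposited a normalized signal table (counts divided by size factors), used for an alternative alone on the log2(value + 1) scale.

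Of 48709 genes, 48349 matched GENCODE M21 (GRCm38). A gene was tested where 50% or more of the samples held 5 or more counts, using the two-sided edgeR 4.0.16 quasi-likelihood test (R 4.3.3, TMM, robust), with Benjamini-Hochberg adjustment and a threshold of 0.05. Sequences of the oligonucleotides came from the study's materials and RefSeq. The script was tested on simulated data. Alternatives were DESeq2 1.42.0, other scaling and filters, removal of ribosomal-RNA-linked and mitochondrial genes, each sample left out, a replicate block, plain total counts for levels, and other lengths of seed match. Total counts of 17287168 to 48091231 limit precision, and 3 counts, the limit that a count of 0 allows, were 0.0624 to 0.174 CPM, for counting error only.

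The members and gene lists were chosen with earlier results of these data known. Genes named in the text were all members, all tested Dlk1-Dio3 neighbours, the 3 genes of smallest p and any called gene in each other companion list, and the 2 genes most correlated with each member. Marker genes named came from lists of cell types, and Lrrc7 and Lrrc40 were added after their values were seen. Of the listed companion symbols, 9 were not matched and 4 fell under the filter, and these were not analysed here.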

Additional observations from a re-analysis of the deposited data

Results flagged for a closer look

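Of 32 series of values, 5 held a sample far from the rest of its group, where chance would give about 1.6. Each value below is the gap from that sample to its nearest neighbour as a share of the whole range of its group, on the log2 scale. Rian in control replicate 2 had a share of 0.6797, with a log2 CPM of 9.27 against 9.17 in the next sample. Mimic replicate 5 gave the other 4, which share the same Malat1 and Neat1 values and so are not separate signs. Malat1 had a share of 0.8297 (log2 CPM 9.67 against 9.11), and Neat1 had 0.7875 (5.06 against 4.92). The log2 ratio of Malat1 to Neat1 had 0.7733 (4.62 against 4.21), and that of Malat1 to Meg3 had 0.8236 (-1.98 against -2.44).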

How the results depend on the processing

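B230334C09Rik was the single member called under all 19 alternatives with a test, with a log2 fold change between -0.203 and -0.166. These fits reuse the same samples, and the members were picked with this comparison known, so the repeated calls are not separate support. All 160 member fold changes under alternatives moved by less than the SD within groups, and 142 kept their sign. This limit was wide and does not show that the values are stable. The SD exceeded the size of the fold change for every member but B230334C09Rik. For Malat1 it was 0.228 against a log2 fold change of -0.16. Over all genes, 495 calls became 785 without the count filter, 328 with the replicate block and 218 (without control replicate 1) to 491 with 1 sample left out. The split was 307 lower and 188 higher, against 226 and 234 with upper-quartile scaling and 485 and 300 without the filter. Companion calls went from 3 to 6 without the filter, 0 with the replicate block (Grb10 then had an edgeR adjusted p of 0.0522), and 1 to 4 with 1 sample left out, and the cause was not tested. Genes with a seed match went from 6 to 3 with the 8-letter match, which is stricter by construction. The median covariation ranged from 0.4917 to 0.6181 with 1 sample left out. Leaving out control replicate 6 and mimic replicate 5 together, an alternative chosen after seeing the data, gave 377 calls. Replicate numbers did not pair samples, as same-numbered samples had correlations of -0.235 to 0.154 over 5 pairs, next to -0.388 to 0.383 over the 25 other pairs. Mirg and Neat1 had the fewest counts, but the largest SE of a log2 fold change among the members was that of Malat1 (0.14), next to 0.052 for Mirg and 0.046 for Neat1.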
